A study of Homo sapiens with 10 samples.

Results

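Cholesterol and fatty acid synthesis was followed through 31 genes that the SREBP transcription factors are known to control or that control SREBP, chosen by gene symbol from the 58050 genes of the table. They comprised 4 regulators, 6 enzymes of the mevalonate pathway, 11 enzymes from squalene to cholesterol, 1 sterol carrier and 9 enzymes of fatty acid synthesis and activation. The rule that lists them uses no measured value, but the list was chosen with earlier results of these data known. All 31 averaged 1 TPM or more across the 10 libraries and so were tested (TPM is a level per transcript length, in which every library is scaled to the same total).

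The cells were HCT116, a human colorectal carcinoma line, grown in flasks in McCoy's 5A medium with serum. RNA of 5 HCT116-WT cultures (genotype WT) and of 5 HCT116-CD276KO cultures (genotype CD276KO) was sequenced after poly(A) selection. HCT116-CD276KO cells had been edited with a Cas9 ribonucleoprotein and a guide RNA against CD276, an immune checkpoint molecule of the B7 family, and came from the same single cell clone. Scrambled guide RNA is given as the control of the editing, and the labels of the HCT116-WT libraries do not say whether those cells had received it. The replicates therefore measured the spread between cultures, and an effect of CD276 loss cannot be told apart from other differences between this clone and the parental cells.

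CD276 was at 38.08 to 53.61 TPM in HCT116-WT and at 4.4 to 7.42 TPM in HCT116-CD276KO, a log2 fold change of -2.85 ± 0.13 (SE, n = 5 per group, limma adjusted p = 1.39e-07). Of 8 epithelial markers, 5 reached 1 TPM, and VIL1, CDX1 and LGALS4 stayed under 0.5 TPM in every library. The summed epithelial markers were 4173 to 4942 TPM in HCT116-WT and 3306 to 3773 TPM in HCT116-CD276KO, and all 5 that were tested fell. After median-of-ratios scaling 1 of the 5 passed the test, and after quantile normalization 4 did, with all 5 still below 0. Their part in the results below was not tested. All 7 leukocyte and macrophage markers stayed under 0.5 TPM in every library, as did 6 of 7 fibroblast and endothelial markers. No library pair held identical values. In bulk RNA, fewer cells that express a gene and less of its RNA per cell cannot be told apart. The libraries also differed in how their values followed base composition and transcript length, over genes: the deviations of a library correlated with GC content at a Spearman coefficient of 0.63 in HCT116-WT replicate 3, of 0.48 in HCT116-CD276KO replicate 2 and of between -0.34 and 0.004 in the others. With transcript length the coefficient was -0.20 and -0.19 in HCT116-CD276KO replicates 2 and 3 and between -0.05 and 0.18 in the others. Length and GC content of a gene were medians over all its annotated transcripts, short ones included. This gave 424 bases for FASN and 772 for ACACA, so the length need not be that of the expressed mRNA.

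SREBP proteins are made as membrane proteins of the endoplasmic reticulum. When sterols are scarce, SCAP carries them to the Golgi, where proteases release the part that enters the nucleus and turns on genes of lipid synthesis. When sterols are abundant, INSIG proteins hold SCAP back. SREBF2 is best known for the cholesterol genes and SREBF1 for the fatty acid genes, and tumour cells such as those of colorectal carcinoma are known to make much of their own membrane lipid by this route.

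The SREBP proteins bind the sterol regulatory element, and the factor NF-Y, which binds the CCAAT box, acts beside them on many of these promoters. The window from 250 bases before to 50 after the RefSeq start site (GRCh38.p14) was given for 28 of the 31 members. These windows were searched on both strands for TCACNCCAC (reverse GTGGNGTGA) and for CCAAT (reverse ATTGG), and no match of the one overlapped a match of the other. TCACNCCAC stood in 1 of the 28 members, SREBF2, and in 1.39% of all 27305 genes with a window. A looser form, TCACNCNAC, which also takes in the first, stood in 5 of 28 (ACSS2, FADS2, FDPS, HSD17B7 and SREBF2) and in 3.13% of all genes. CCAAT stood in 22 of 28 members, against 39.7% of all genes and 43.5% of the 9849 tested genes with a window. It was present in all 6 members that later passed the expression test, and neither form of the element was in the windows of these 6. A match of letters is a description and does not show that a factor was bound. The looser form and the CCAAT box were added after the first search. Stretches before the start sites of 5 of these 6 members are shown for the position of the CCAAT box, together with the SREBF2 element, with ATTGG or CCAAT in capitals in the first 5 sequences and TCACCCCAC in the last. They are chr7:155297628-155297775 (plus strand) for INSIG1, chr5:43313513-43313662 (minus) for HMGCS1, chr12:109573581-109573792 (plus) for MVK, chr4:165327419-165327666 (plus) for MSMO1, chr11:65111786-65111814 (plus) for TM7SF2 and chr22:41832962-41832990 (plus) for SREBF2. All but the short ones of TM7SF2 and SREBF2 lie outside annotated exons.
INSIG1: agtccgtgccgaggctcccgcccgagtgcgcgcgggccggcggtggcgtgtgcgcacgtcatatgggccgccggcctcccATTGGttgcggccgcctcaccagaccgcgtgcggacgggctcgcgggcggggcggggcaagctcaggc
HMGCS1: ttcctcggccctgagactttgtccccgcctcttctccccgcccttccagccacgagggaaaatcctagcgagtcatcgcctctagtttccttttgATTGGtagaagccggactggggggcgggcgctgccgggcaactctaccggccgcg
MVK: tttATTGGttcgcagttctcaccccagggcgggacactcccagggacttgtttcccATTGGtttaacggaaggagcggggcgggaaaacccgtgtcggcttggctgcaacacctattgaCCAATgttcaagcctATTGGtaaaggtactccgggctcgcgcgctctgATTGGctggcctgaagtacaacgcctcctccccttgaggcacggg
MSMO1: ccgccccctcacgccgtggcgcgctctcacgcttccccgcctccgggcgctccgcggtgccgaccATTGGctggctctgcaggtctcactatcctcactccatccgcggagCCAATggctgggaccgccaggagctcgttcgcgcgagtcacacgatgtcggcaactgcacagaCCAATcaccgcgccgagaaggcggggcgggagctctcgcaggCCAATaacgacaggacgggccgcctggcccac
TM7SF2: ccccgagcgccgATTGGctggtgtgctgg
SREBF2: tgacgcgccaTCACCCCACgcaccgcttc

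The MVK stretch held 5 boxes and the MSMO1 stretch 4, while INSIG1, HMGCS1 and TM7SF2 each showed 1. The full window of HMGCS1 held 2. MVK, with 5 boxes, had the largest expression difference of the 31 members, and NSDHL, whose window also held 5, did not pass the test. Nor did MVD, IDI1, FDPS and EBP, with up to 3 boxes in a window. A relation of box number to expression was not tested.

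The comparison of HCT116-CD276KO with HCT116-WT asked which transcripts differ in cells without CD276. Of the 31 members, 5 fell and 1 rose at a Benjamini-Hochberg adjusted p under 0.05 in limma on log2(TPM + 1). Those that fell were MVK, ACACA, INSIG1, MSMO1 and HMGCS1, and the one that rose was TM7SF2. Across the genome the test called 4.87% of all 13581 genes tested, 4.09% lower and 0.781% higher. The falls ranged from 0.35 (HMGCS1) to 0.78 (MVK) on the log2 scale. None of the 31 was past 2-fold, against 0.486% of all genes tested, and 1 (MVK) was past 1.5-fold, against 1.75%. At an unadjusted p under 0.05 there were 14 members, against 21.9% of all genes. By median-of-ratios scaling there were 7 members and 2865 of the 13581 genes, and by quantile normalization 8 and 2845. After correction for length and GC content there were 12 members and 3606 of 13472 genes.

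The differences of most members were small. By the point estimate 25 of 31 were lower in HCT116-CD276KO, where 68.1% of all genes tested were lower, and this became 21 members by median-of-ratios scaling or 20 by quantile normalization. The median log2 fold change was -0.14 over the members and -0.09 over all genes tested. After median-of-ratios scaling these medians were -0.04 and 0.00, and after quantile normalization -0.07 and 0.01. The scaling also moved the direction of the calls over all genes, from 556 lower and 106 higher to 386 and 197 by median-of-ratios scaling, to 385 and 253 by quantile normalization and to 671 and 606 of 13472 genes after correction for length and GC content. For 24 of the 25 members that did not pass the test, the 95% interval of the difference lay within 1.5-fold either way.

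**Figure D1:**
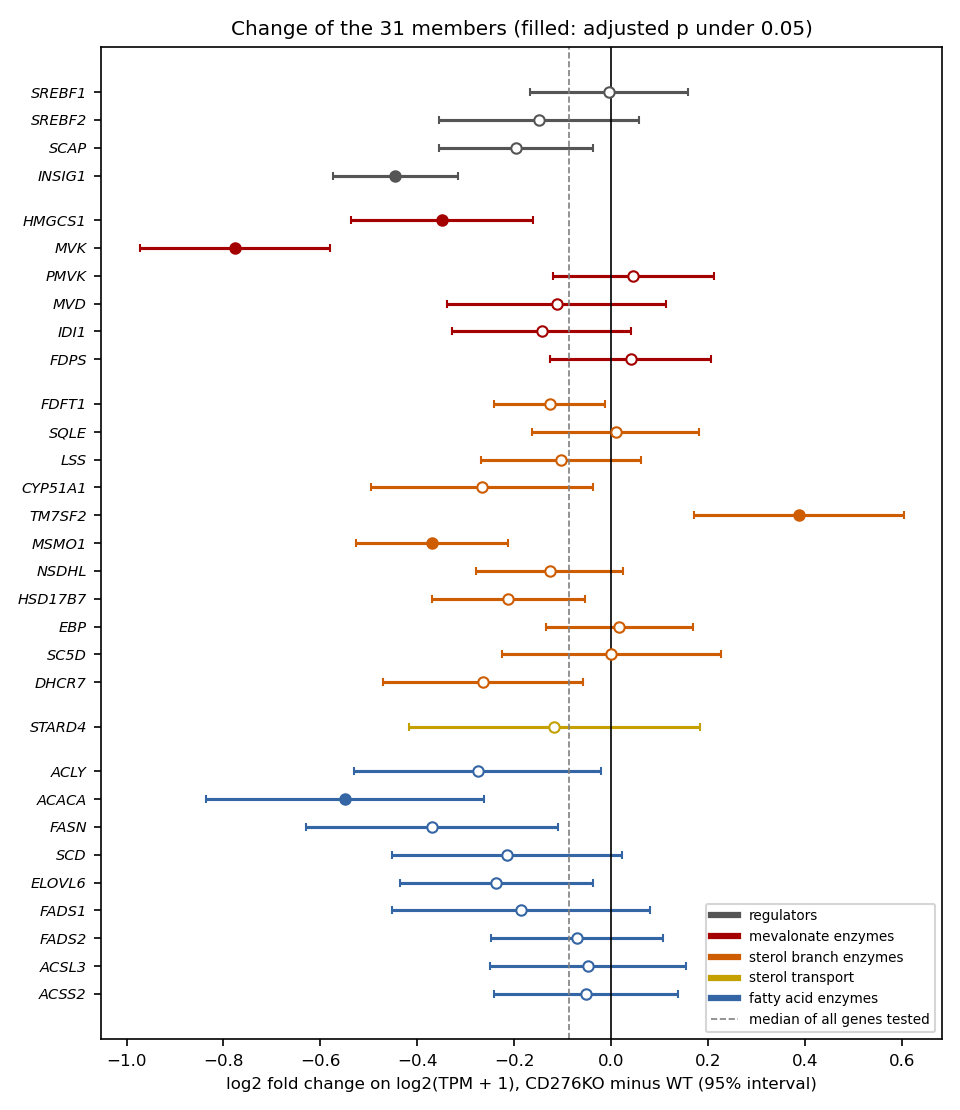
Log2 fold change of each of the 31 members on log2(TPM + 1), HCT116-CD276KO minus HCT116-WT, with its 95% interval (limma, n = 5 per group). Colours mark the branch, filled points had an adjusted p under 0.05, and the dashed line is the median of all genes tested. MVK lies lowest at -0.78, TM7SF2 is the only filled point on the right at 0.39, and most open points lie between 0 and -0.28.

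Among the regulators, INSIG1 fell. INSIG1 (ENSG00000186480, chromosome 7 of hg38, 155297776 to 155310235, plus strand), the protein that retains the SCAP and SREBP complex in the endoplasmic reticulum and is itself a target of SREBP, stood at 61.53, 61.36, 65.01, 57.19 and 64.97 TPM in replicates 1 to 5 of HCT116-WT and at 43.63, 46.34, 43.77, 44.32 and 48.18 TPM in those of HCT116-CD276KO. Every HCT116-CD276KO culture lay below every HCT116-WT culture, and both groups were tight. The means were 62.0 ± 3.23 and 45.2 ± 1.97 TPM (SD, n = 5), which gave a log2 fold change of -0.45 ± 0.06 (SE, limma adjusted p = 0.00118). In the exact permutation test its p was 0.00794, the smallest that 5 against 5 can give.

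The other 3 regulators did not pass the test. SCAP, the escort protein of SREBP, was at 34.81 to 39.83 TPM in HCT116-WT and at 28.03 to 33.82 TPM in HCT116-CD276KO. These ranges did not overlap, yet the log2 fold change of -0.20 ± 0.07 had an adjusted p of 0.144 in limma (exact permutation p = 0.00794). SREBF2, which codes for the SREBP of the cholesterol genes, averaged 78.3 ± 4.44 TPM and 71.0 ± 9.91 TPM, with an adjusted p of 0.355. SREBF1, which codes for the SREBP of the fatty acid genes, averaged 96.9 ± 4.41 TPM and 96.9 ± 9.64 TPM (SD, n = 5), and its 95% interval ran from -0.17 to 0.16 on the log2 scale. Transcript levels of SREBF1 and SREBF2 say nothing of how much of the proteins was processed.

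In the mevalonate pathway, MVK and HMGCS1 fell and the other 4 enzymes did not pass the test. MVK (ENSG00000110921, chromosome 12, 109573255 to 109598125, plus strand), mevalonate kinase, stood at 21.72, 18.14, 23.63, 19.80 and 20.48 TPM in replicates 1 to 5 of HCT116-WT and at 10.90, 13.77, 11.84, 11.38 and 10.61 TPM in those of HCT116-CD276KO. The groups lay well apart, the highest HCT116-CD276KO culture being replicate 2 and the lowest HCT116-WT culture also replicate 2. The means were 20.8 ± 2.06 and 11.7 ± 1.25 TPM (SD, n = 5), and the level without CD276 was 56.4% of that in HCT116-WT. On the log2 scale MVK fell by 0.78 ± 0.09 (SE, limma adjusted p = 0.00041). MVK shares its locus with MMAB, a cobalamin enzyme on the opposite strand, which averaged 22.01 ± 1.41 and 25.2 ± 1.77 TPM (log2 fold change 0.19, limma adjusted p = 0.150). The libraries were made with a strand-specific kit, but how the counting used strand is not given in the sources used here.

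HMGCS1 (ENSG00000112972, chromosome 5, 43287470 to 43313512, minus strand), the cytosolic HMG-CoA synthase at the head of the pathway, stood at 68.86, 66.23, 58.36, 64.07 and 69.30 TPM in replicates 1 to 5 of HCT116-WT and at 51.62, 43.80, 47.84, 53.46 and 59.88 TPM in those of HCT116-CD276KO. The groups overlapped by a single library on each side, replicate 3 of HCT116-WT and replicate 5 of HCT116-CD276KO. The log2 fold change was -0.35 ± 0.09 (SE, limma adjusted p = 0.0413, exact permutation p = 0.0159).

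PMVK, phosphomevalonate kinase and the next step after MVK, averaged 20.9 ± 1.52 TPM in HCT116-WT and 21.6 ± 1.80 TPM in HCT116-CD276KO. Its log2 fold change was 0.05, with a 95% interval of -0.12 to 0.21. FDPS, farnesyl diphosphate synthase, was the most abundant of these enzymes at 247 ± 24.8 and 254 ± 16.5 TPM, with an interval of -0.13 to 0.21. MVD, the mevalonate diphosphate decarboxylase (83.3 ± 10.1 and 77.1 ± 9.97 TPM, adjusted p = 0.530), and IDI1, the isomerase that makes dimethylallyl diphosphate (76.1 ± 7.94 and 68.6 ± 5.10 TPM, adjusted p = 0.326), did not pass the test. Whether MVK changed more than these enzymes was not tested.

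**Figure D2:**
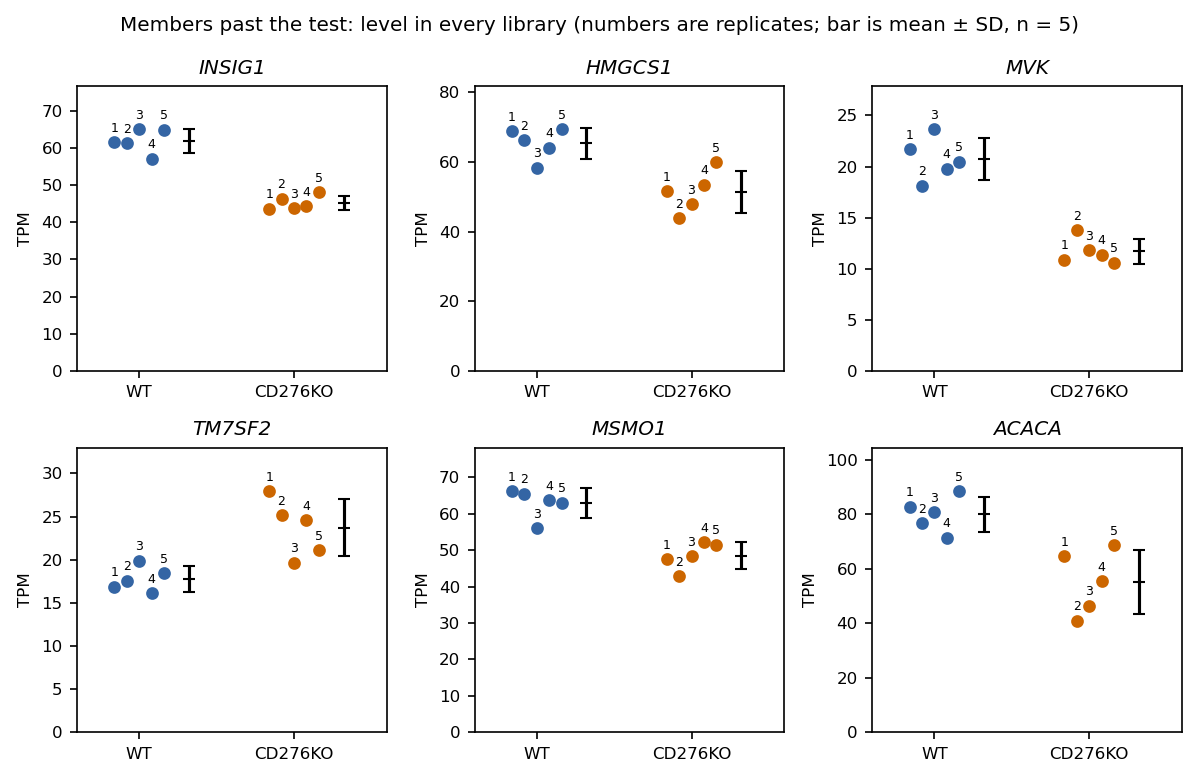
Level in TPM of the 6 members past the test in each of the 10 libraries, with each library's replicate number and the mean ± SD (n = 5) beside the points; every axis starts at 0. INSIG1, MVK, MSMO1 and ACACA do not overlap between the genotypes, while HMGCS1 and TM7SF2 overlap by 1 library on each side.

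In the branch from squalene to cholesterol, MSMO1 fell, TM7SF2 rose and 9 enzymes did not pass the test. MSMO1 (ENSG00000052802, chromosome 4, 165327667 to 165343164, plus strand), the methylsterol monooxygenase that starts the removal of the methyl groups at carbon 4 of the sterol ring, stood at 66.21, 65.50, 56.03, 63.74 and 62.97 TPM in replicates 1 to 5 of HCT116-WT and at 47.55, 42.76, 48.37, 52.20 and 51.47 TPM in those of HCT116-CD276KO. The groups did not overlap. The log2 fold change was -0.37 ± 0.07 (SE, limma adjusted p = 0.0132).

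TM7SF2 (ENSG00000149809, chromosome 11, 65111845 to 65116384, plus strand), one of the sterol C14 reductases, stood at 16.88, 17.59, 19.87, 16.09 and 18.46 TPM in replicates 1 to 5 of HCT116-WT and at 27.96, 25.18, 19.64, 24.57 and 21.13 TPM in those of HCT116-CD276KO. HCT116-CD276KO replicate 3 lay just below HCT116-WT replicate 3, and the other 4 cultures without CD276 lay above all HCT116-WT cultures. The log2 fold change was 0.39 ± 0.10 (SE, limma adjusted p = 0.0462, exact permutation p = 0.0159). TM7SF2 overlaps VPS51, a vesicle tethering gene on the same strand, which averaged 97.9 ± 11.6 and 102 ± 7.73 TPM (log2 fold change 0.06, limma adjusted p = 0.696), so reads in the shared bases could be counted for either.

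HSD17B7 (chromosome 1, 162790702 to 162812823, plus strand), a ketosteroid reductase of the pathway, stood at 15.84, 14.52, 14.44, 16.33 and 17.56 TPM in replicates 1 to 5 of HCT116-WT and at 13.21, 13.00, 12.73, 14.08 and 14.12 TPM in those of HCT116-CD276KO. These ranges did not overlap, but the difference was small and did not pass the adjusted test (log2 fold change -0.21 ± 0.07, limma adjusted p = 0.122, exact permutation p = 0.00794). Its copy HSD17B7P2 averaged 1.81 TPM, and reads that match both could be placed on either. CYP51A1, the C14 demethylase (log2 fold change -0.27, adjusted p = 0.167), and DHCR7, the last reductase to cholesterol (-0.26, adjusted p = 0.134), were lower by similar amounts with overlapping groups.

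The enzymes at the entry of the branch did not pass the test. FDFT1, squalene synthase, averaged 206 ± 5.40 and 189 ± 9.82 TPM (limma adjusted p = 0.190, exact permutation p = 0.0159). Its log2 fold change was -0.13, with a 95% interval of -0.24 to -0.01, and -0.03 under median-of-ratios scaling. SQLE, squalene epoxidase, averaged 46.8 ± 4.21 and 47.1 ± 3.49 TPM, and LSS, lanosterol synthase, 26.6 ± 1.82 and 24.7 ± 2.04 TPM. Their 95% intervals ran from -0.16 to 0.18 and from -0.27 to 0.06. NSDHL, which acts with MSMO1 and HSD17B7 in C4 demethylation, had a log2 fold change of -0.13 (adjusted p = 0.298). EBP, the sterol isomerase, and SC5D, the sterol C5 desaturase, were at 0.02 and 0.00 on the log2 scale, with intervals of -0.13 to 0.17 and -0.23 to 0.23. STARD4, a cytosolic sterol carrier, averaged 37.3 ± 4.66 and 34.7 ± 6.86 TPM (adjusted p = 0.629).

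Across the genome, groups without overlap were found in 7.61% of the genes tested. Among the members this held for 6 of 31, all lower in HCT116-CD276KO: INSIG1, MVK, MSMO1, ACACA, SCAP and HSD17B7. In the exact permutation test, 12 of 31 members had an unadjusted p under 0.05, as did 20.4% of all genes tested. Both counts used TPM as deposited, and neither was repeated after scaling. The median-of-ratios factors were 1.01 to 1.08 in HCT116-WT and 0.89 to 1.02 in HCT116-CD276KO. Under that scaling the log2 fold changes of SCAP and HSD17B7 were -0.10 and -0.12 (limma adjusted p = 0.471 and 0.331).

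Of the fatty acid enzymes, ACACA fell and 8 did not pass the test. ACACA (ENSG00000278540, chromosome 17, 37084992 to 37406836, minus strand), acetyl-CoA carboxylase, which makes the malonyl-CoA that fatty acid synthase extends, stood at 82.88, 76.73, 80.88, 71.54 and 88.64 TPM in replicates 1 to 5 of HCT116-WT and at 64.78, 40.97, 46.50, 55.41 and 68.77 TPM in those of HCT116-CD276KO. The groups did not overlap, but the cultures without CD276 were spread widely, with replicates 2 and 3 lowest. The means were 80.1 ± 6.44 and 55.3 ± 11.8 TPM (SD, n = 5), which gave a log2 fold change of -0.55 ± 0.13 (SE, limma adjusted p = 0.0357).

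FASN (chromosome 17, 82078338 to 82098294, minus strand), fatty acid synthase, stood at 407.34, 390.58, 470.46, 359.70 and 419.93 TPM in replicates 1 to 5 of HCT116-WT and at 375.84, 316.96, 235.16, 309.74 and 360.83 TPM in those of HCT116-CD276KO. The groups overlapped, and replicate 3 of HCT116-CD276KO was the lowest of all 10 libraries. The log2 fold change of -0.37 ± 0.12 did not pass the test (limma adjusted p = 0.105, exact permutation p = 0.0238), and its 95% interval of -0.63 to -0.11 was the only one among the members not called that reached past 1.5-fold.

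The remaining fatty acid enzymes were lower by 0.05 to 0.28 on the log2 scale, and none passed the test. ACLY, which makes cytosolic acetyl-CoA from citrate, averaged 298 ± 19.8 and 249 ± 46.9 TPM (log2 fold change -0.28, adjusted p = 0.198). SCD, the desaturase that makes oleate and the member with the highest level over all libraries, averaged 407 ± 33.0 and 354 ± 57.8 TPM (-0.21, adjusted p = 0.267). ELOVL6, which elongates palmitate, was at -0.24 (adjusted p = 0.161), and FADS1, a desaturase of polyunsaturated fatty acids, at -0.19 (adjusted p = 0.372). FADS1 overlaps its neighbour FADS2 on the opposite strand. FADS2 (-0.07), the acyl-CoA synthetase ACSL3 (-0.05) and the acetyl-CoA synthetase ACSS2 (-0.05) were close to 0, and all 3 lay above 0 under median-of-ratios scaling and quantile normalization.

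**Figure D3:**
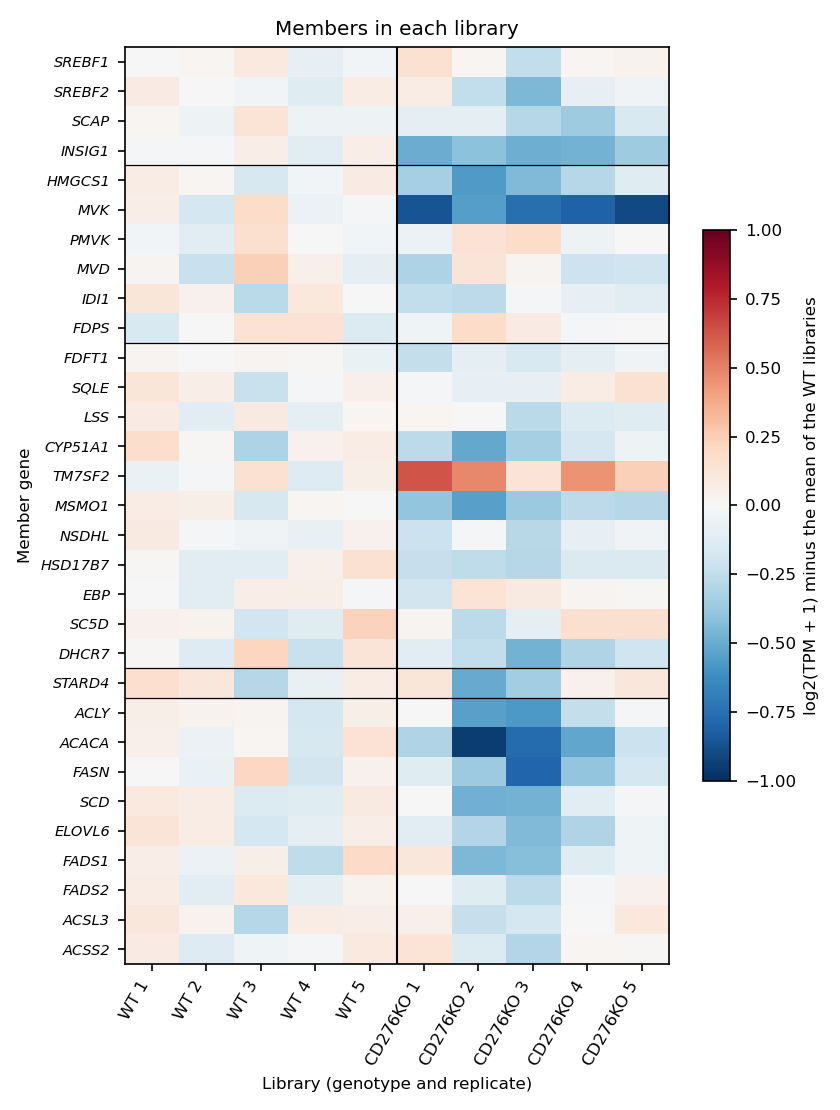
Log2(TPM + 1) of each member in each library minus the mean of the 5 HCT116-WT libraries; blue is lower and red higher, with members ordered by branch. MVK and INSIG1 are blue in all 5 HCT116-CD276KO libraries, TM7SF2 is red in all 5, and the fatty acid enzymes are darkest in HCT116-CD276KO replicates 2 and 3.

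Among the HCT116-CD276KO cultures the fatty acid enzymes kept a similar order. For all 9, the lowest HCT116-CD276KO culture was replicate 3 (5 enzymes) or replicate 2 (4 enzymes), and the highest was replicate 1 (5) or replicate 5 (4). This order was not particular to these enzymes. The median-of-ratios factors, taken over the tested genes, were 1.02, 0.92, 0.89, 0.98 and 1.02 in HCT116-CD276KO replicates 1 to 5. Among the HCT116-WT cultures the highest was replicate 5 for 4 of the 9, replicate 1 for 3 and replicate 3 for 2. The lowest was replicate 4 for 4, replicate 3 for 3 and replicate 2 for 2, so replicate 3 stood at both ends. The summed level of the 9 enzymes was 1304 to 1502 TPM in HCT116-WT. In HCT116-CD276KO replicates 1 to 5 it was 1389, 1051, 970.2, 1223 and 1370 TPM. Replicates 1 and 5 thus lay inside the HCT116-WT range and replicates 2, 3 and 4 below it. The mean sums were 1434 ± 78.7 and 1201 ± 187 TPM (SD, n = 5), or 83.8% of HCT116-WT.

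Replicates 2 and 3 of HCT116-CD276KO were also those whose deviations correlated most negatively with transcript length. With each library's trend with length and GC content removed, the median log2 difference of the 9 fatty acid enzymes from the HCT116-WT mean went from -0.36 to -0.10 in replicate 2 and from -0.45 to -0.27 in replicate 3. This removal also took out each library's overall level. The parts of level and trends in the result were not told apart or tested further. This correction called 9.48% of the genes over the table, ACACA among them (log2 fold change -0.46, limma adjusted p = 0.0222), and 7 of the 9 were below 0, against 9 of 9 in the values as deposited. Without replicates 2 and 3 of HCT116-CD276KO, where limma called 339 of all 13581 genes, 0 of the 9 were called (2 at an unadjusted p under 0.05), 6 of 9 were below 0 and their median was -0.04. In the same fit 2043 of the 13581 genes had an unadjusted p under 0.05, 7924 were below 0 and the median was -0.03.

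**Figure D4:**
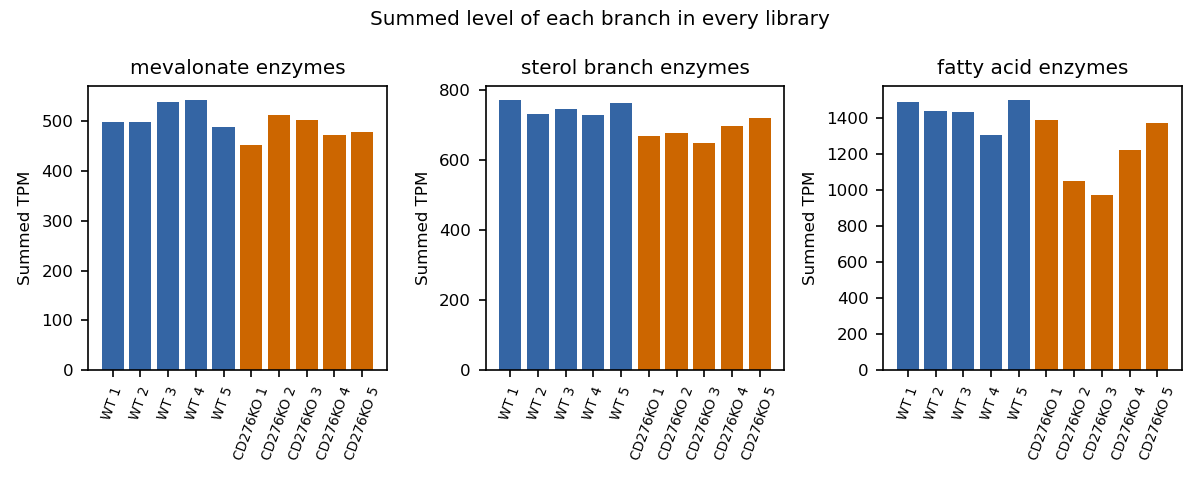
Summed TPM of the mevalonate, sterol branch and fatty acid enzymes in each library, with HCT116-WT in blue and HCT116-CD276KO in orange and every axis starting at 0. In TPM as deposited, without further scaling, the sterol branch sums of the genotypes do not overlap and the mevalonate sums do. The fatty acid sums vary most among the HCT116-CD276KO cultures, from 970.2 to 1389 TPM.

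The sums of the regulators, at 273 ± 11.1 and 245 ± 21.0 TPM, were likewise lowest in replicate 3 and highest in replicate 1 of the HCT116-CD276KO cultures. The sterol branch sum was also lowest in replicate 3. Of its 11 enzymes 6 had their lowest HCT116-CD276KO culture in replicate 3, 3 in replicate 2 and 2 in replicate 1. The sterol branch sums were 729.93 to 774.06 TPM in HCT116-WT and 650.23 to 720.63 TPM in HCT116-CD276KO, with means of 749 ± 19.6 and 684 ± 27.2 TPM (91.2% of HCT116-WT). The median log2 difference of the 11 enzymes from the HCT116-WT mean was also taken after that removal of trends and overall level. It was -0.17, 0.08, -0.01, -0.01 and -0.01 in HCT116-CD276KO replicates 1 to 5, and -0.03 to 0.03 in HCT116-WT. The mevalonate sums, to which FDPS contributed most, were 514 ± 25.7 and 484 ± 24.9 TPM and overlapped, with replicates 2 and 3 the highest among HCT116-CD276KO cultures. Over all 31 members the sums were 3007 ± 87.0 and 2648 ± 210 TPM, or 88.0% of HCT116-WT, and no test was made of these sums.

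The calls differed in how they depended on single libraries. INSIG1, MVK and MSMO1 kept an adjusted p under 0.05 in all 10 limma fits that left out 1 library, with the highest at 0.00605, 0.0023 and 0.0438. ACACA did so in 2 of the 10 fits (those without HCT116-CD276KO replicates 1 or 5, range of adjusted p 0.0185 to 0.103) and HMGCS1 in 2 (without HCT116-WT replicate 3 or HCT116-CD276KO replicate 5, 0.0192 to 0.116). TM7SF2 did so in 3 (without HCT116-WT replicate 3 or HCT116-CD276KO replicates 3 or 5, 0.0281 to 0.120). The log2 fold change of TM7SF2 was 0.48 by median-of-ratios scaling and 0.51 by quantile normalization (limma adjusted p = 0.01415 and 0.0118). It was 0.44 after length and GC correction (limma adjusted p = 0.00548), while with the replicate block the limma adjusted p was 0.113. Across all 21 other fits the same threshold was passed 21 times by INSIG1, 21 by MVK, 19 by MSMO1, 10 by ACACA, 10 by TM7SF2 and 9 by HMGCS1. With all genes above 0 TPM in the test, the adjusted p was 0.0884 for ACACA, 0.0915 for TM7SF2 and 0.0756 for HMGCS1, and under median-of-ratios scaling it was 0.0606 for HMGCS1. Without HCT116-CD276KO replicates 2 and 3 it was 0.0526 for MSMO1, 0.0925 for ACACA, 0.155 for HMGCS1 and 0.0604 for TM7SF2. No member outside these 6 passed it in any of the 21.

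Genes of neighbouring lipid pathways, 73 in number and 69 of them tested, gave 3 calls, all lower in HCT116-CD276KO, against 4.87% of all genes tested. Their median log2 fold change was -0.08. Of 13 further genes of SREBP processing and its regulation, 1 fell: INSIG2, the paralogue of INSIG1, from 25.3 ± 1.45 to 20.0 ± 1.40 TPM (log2 fold change -0.33 ± 0.07, limma adjusted p = 0.0214). It was at 23.64 to 27.02 TPM in HCT116-WT and 17.80 to 21.22 TPM in HCT116-CD276KO, and these ranges did not overlap. The 13 ranged from -0.35 to 0.06.

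Of 18 tested genes of other fatty acid enzymes, 2 fell. ACSL5, an acyl-CoA synthetase that activates long-chain fatty acids, stood at 96.10, 88.87, 86.29, 93.90 and 97.45 TPM in replicates 1 to 5 of HCT116-WT and at 45.58, 34.14, 35.78, 40.42 and 44.21 TPM in those of HCT116-CD276KO. The groups were far apart, and the log2 fold change of -1.20 ± 0.09 (SE, limma adjusted p = 7.28e-06) was larger in size than that of any of the 31 members. ELOVL1, which elongates saturated very long chains, averaged 89.4 ± 4.36 and 72.5 ± 5.79 TPM (log2 fold change -0.30 ± 0.07, limma adjusted p = 0.0278). With 1 library left out, ACSL5 kept its call in all 10 fits, while INSIG2 lost it without HCT116-WT replicates 1, 4 or 5 or HCT116-CD276KO replicate 4 (limma adjusted p up to 0.0667) and ELOVL1 without HCT116-WT replicates 1, 2, 4 or 5 (up to 0.0807). By quantile normalization the adjusted p of INSIG2 was 0.0501, and under median-of-ratios scaling that of ELOVL1 was 0.0729.

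In limma with group as the only term, none of 13 other sterol and isoprenoid enzymes passed the test. Nor did any of 9 tested genes of sterol export and LXR, the oxysterol receptor, or of 16 genes of fatty acid oxidation. At an unadjusted p under 0.05 there were 2, 2 and 3 of them. Their log2 fold changes ranged from -0.53 to 0.11, from -0.39 to 0.14 and from -0.30 to 0.19. The median of the fatty acid oxidation genes was 0.00, with 8 of 16 below 0, but this moved with the scaling. It was 0.09 with 4 below 0 under median-of-ratios scaling, 0.12 with 5 below 0 under quantile normalization, and 0.11 with 3 below 0 and 3 called higher after correction for length and GC content.

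**Figure D5:**
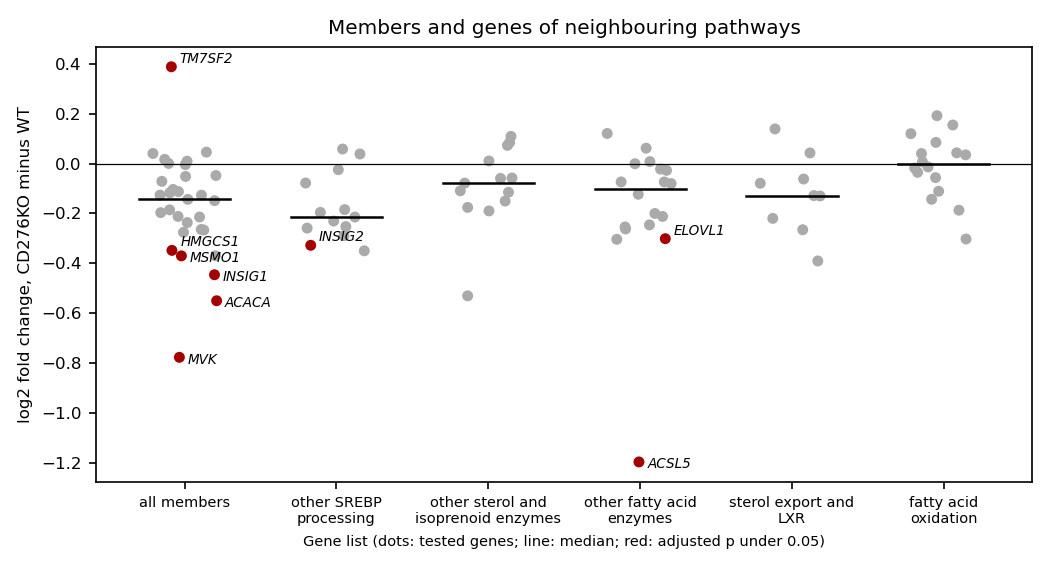
Log2 fold change (HCT116-CD276KO minus HCT116-WT, on log2(TPM + 1)) of every tested gene of the members and of 5 neighbouring lists; each dot is a gene, red marks an adjusted p under 0.05 in limma and the line is the median of the list. ACSL5 lies lowest of all at -1.20, and TM7SF2 is the only red dot above 0.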

How the data were processed

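RNA of 5 HCT116-WT and 5 HCT116-CD276KO cultures was analysed from the table of TPM that the authors deposited. Per the labels, the authors made strand-specific poly(A) libraries, read them as single reads and named hg38, STAR 2.5.2b, RSEM 1.3.0, featureCounts 1.5.1 and FastQC 0.11.5 in their processing notes. Which program gave the TPM is not given in the sources used here. TPM carry no counts, so the depth behind each value is unknown, and the libraries summed to 999999 to 1000000 TPM.

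The 13581 of 58050 genes that averaged 1 TPM or more were compared on log2(TPM + 1) in limma 3.58.1 (R 4.3.3) with group as the only term, empirical Bayes with a trend, and p-values adjusted by Benjamini-Hochberg across the tested genes. A fold change on this scale understates the change of low genes. Two-sided exact permutation tests of 5 against 5 were run per gene, and their p-values are unadjusted over the 31 members. The scripts were tested on simulated data. The alternatives took a pseudocount of 0.1, every gene above 0 TPM, genes averaging 5 TPM or more, median-of-ratios scaling, quantile normalization, robust empirical Bayes, replicate number as block, removal of loess trends (span 0.3) with transcript length and GC content for the 13472 genes with both, that removal with the block, omission of libraries, a threshold of 1.5-fold or 2-fold, and the log2 ratio of mean TPM. The removal of loess trends also took out the overall level of each library. The omission of 2 libraries together was chosen after seeing the data.

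The members and lists were chosen with earlier results of these data known. All members are named, and of each neighbouring list up to 5 called genes. Members with an absolute log2 fold change over 0.3 or a call, and at least 8 in all, were given in every library. Positions and the transcripts behind length and GC content came from GENCODE 44 on hg38, and start-site windows from RefSeq (GRCh38.p14). Figures were drawn with matplotlib 3.10.9, and other steps used numpy 2.4.6, pandas 2.3.3 and scipy 1.17.1 under Python 3.11.15.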

Additional observations from a re-analysis of the deposited data

Results flagged for a closer look

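In 64 groups of 5 libraries (31 members and CD276 in both genotypes), the gap between the lowest or highest library and its neighbour was above 0.71 of the group's range in 2, where chance gives about 1 in 20, or 3.2 groups. ACLY was at 263.09 TPM in HCT116-WT replicate 4, while the other 4 HCT116-WT libraries lay between 302.69 and 310.31 TPM. ACSL3 was at 104.71 TPM in HCT116-WT replicate 3, while the other 4 lay between 131.6 and 138.45 TPM. Neither gene passed the test in any fit.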

How the results depend on the processing

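Of the 31 members, 6 passed the adjusted test (5 lower, 1 higher). The count was 3 (3 lower, 0 higher) with all genes above 0 TPM and with the replicate block, 1 with a 1.5-fold and 0 with a 2-fold threshold, and 3 to 6 (3 to 5 lower, 0 to 1 higher) when 1 library was left out. Without HCT116-WT replicate 3 and HCT116-CD276KO replicate 2 it was 4, with 0 higher, and without HCT116-CD276KO replicates 2 and 3 it was 2 (INSIG1 and MVK), with 0 higher. Over all genes the 662 calls became 378 with the block, 1277 after length and GC correction, 343 to 857 with 1 library left out and 339 without HCT116-CD276KO replicates 2 and 3. The 3 calls among neighbouring genes became 9 (4 lower, 5 higher) after that correction, 1 to 7 with 1 library left out and 1 without those 2 libraries. These counts came from limma. The cause of these changes was not tested.

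Same-numbered libraries did not deviate together (correlations of deviations over genes from -0.18 to 0.12, with only replicate 5 correlating best with its own number), so the number was not taken as pairing. With the replicate block the members called were ACACA, INSIG1 and MVK, and with block and correction together all 6. Among neighbouring genes INSIG2 (adjusted p 0.0531) and ELOVL1 (0.074) lost their calls with the block in limma, and 3 of 5 epithelial markers passed it. FNTB, of the other sterol and isoprenoid enzymes, gained a call with the block. Its log2 fold change was -0.53, and its limma adjusted p was 0.0359 with the block and 0.0649 without.

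Members near 0 that did not pass the test changed sign. Under median-of-ratios scaling the log2 fold changes were 0.0957 for SREBF1, 0.0212 for FADS2, 0.0522 for ACSL3 and 0.045 for ACSS2. By quantile normalization they were 0.0626 for SREBF1, 0.0145 for LSS, 0.0681 for FADS2, 0.0091 for ACSL3 and 0.0668 for ACSS2. After length and GC correction, with or without the block, they were 0.0533 for SREBF1, 0.008 for LSS, 0.105 for ACSL3 and 0.0193 for ACSS2. Without HCT116-CD276KO replicates 2 and 3 they were 0.0703 for SREBF1, -0.0345 for PMVK, -0.0209 for FDPS, -0.0489 for EBP, 0.0909 for STARD4, 0.0076 for FADS2, 0.0548 for ACSL3 and 0.0562 for ACSS2. Without HCT116-WT replicate 3 and HCT116-CD276KO replicate 2 they were 0.0138 for SREBF1 and -0.0234 for SQLE. With 1 library left out, SREBF1 ranged from -0.0436 to 0.0572, SQLE from -0.0457 to 0.04, EBP from -0.014 to 0.0675, SC5D from -0.0477 to 0.0661 and ACSS2 from -0.0992 to 0.0085. CD276 kept its call in every fit. The depth of the libraries is not kept in TPM, so no counting error could be given.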
